A study of Mus musculus with 24 samples.

Results

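Translation factors are the proteins that start a ribosome on an mRNA and then move it along. Here 36 of their genes were followed in ribosome profiling of mouse liver, chosen by gene symbol from a fixed list of members. They were 6 elongation factor genes, 7 genes of eIF2, start codon factors and eIF6, and 12 genes of the eIF3 complex. The others were 8 genes of cap binding, scanning and the poly(A) tail, and 3 genes of ribosome-associated proteins. All 36 were found among the 22429 genes of the deposited count table, and all 36 were among the 12211 genes that passed the filter on low counts. Of the 36, 12 are known to be made from mRNAs with a 5′ terminal oligopyrimidine tract (TOP mRNAs): Eef1a1, Eef1b2, Eef1d, Eef1g, Eef2, Eif3e, Eif3f, Eif3h, Eif4b, Pabpc1, Rack1 and Tpt1. They were compared with the other 24, which are set apart only by not being on this list. Whether some of the 24 have TOP mRNAs as well was not tested.

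The livers came from 24 male F1 hybrids of C57BL6J and FVBN, 4 in each of 6 groups. Wild types were fed ad libitum to 16 or 104 weeks, or kept on 30% dietary restriction and taken at 16 weeks. Mice of the genotype Ercc1Δ/−, a progeroid model that has 1 truncated and 1 null allele of the DNA repair gene Ercc1 in all tissues, were fed ad libitum to 7 or 16 weeks, or restricted and taken at 16 weeks. Restriction began at week 7 and reached 30% at week 9. All mice had the AIN93G diet, and none was given food before collection on the last day. Footprints are mRNA fragments protected by ribosomes, so a change in them can be a change in mRNA level, in translation of each mRNA, or in both; mRNA libraries were not used here.

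An mRNA is read after eIF4E, eIF4G and eIF4A have bound its cap, eIF2 has brought the initiator tRNA, and eIF3 has held the small ribosomal subunit and these factors together. The elongation factor eEF1A delivers each aminoacyl-tRNA, with eEF1B (made of the Eef1b2, Eef1d and Eef1g products) recharging it with GTP, and eEF2 moves the ribosome on by a codon. TOP mRNAs begin with a cytosine followed by a run of pyrimidines; most ribosomal proteins and several translation factors are made from them, and the protein LARP1 holds them back when the growth kinase complex mTORC1 is inactive.

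Total counts per library ran from 13366558 to 27084259. Ercc1 had 1 to 15 counts in the mutant libraries and 34 to 110 in the wild-type libraries. Markers of hepatocytes, the main cells of liver, summed to at least 94636 CPM (counts scaled to a common total by effective library size) in every library, with none of the 8 at 0. Albumin took 13.6 to 18.6% of the counts in the 8 restricted libraries and 4.68 to 10.7% in the 16 fed ones. Replicate 3 of the restricted wild types stood apart in the members: they took 0.768% of its counts and 1.14 to 1.34% of the counts of the other 3.

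The tract was looked for at annotated start sites of RefSeq (GRCm38.p6, the build of the files), which were given for 28 of the 36 members, 7 TOP and 21 other. Eef1d, Eef1g, Eif3e, Eif3h, Pabpc1, Eif3i, Eif4g2 and Eif6 were not matched. Shown first are the 3 TOP members with the longest runs, then the 2 other members with runs of at least 10 that reach the start site, and then Naca, the other member with the largest change under restriction in wild types. Each sequence is the gene's own strand, 15 bases to either side of the start site, and capitals mark the longest run made of C and T alone.
Rack1: cggaggccgCTCTTTCTTTTTCTCCacagg
Eif3f: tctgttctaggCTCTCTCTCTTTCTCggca
Eef1a1: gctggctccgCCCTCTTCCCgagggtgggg
Eif2s3x: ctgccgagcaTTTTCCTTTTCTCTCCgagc
Eif3l: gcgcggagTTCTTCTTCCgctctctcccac
Naca: gcaactcgTTCTCTTaaagaggaaacccgg
They lie at chr11:48800345-48800374 (plus strand), chr7:108934400-108934429 (plus), chr9:78481710-78481739 (minus), chrX:94212637-94212666 (minus), chr15:79075208-79075237 (plus) and chr10:128035331-128035360 (plus), in this order.

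For each gene the start listed first was used, and a run was counted whole where it touched the 10 bases to either side of the start. The longest run of C or T, on the gene's strand alone, was 16 bases for Rack1, 15 for Eif3f, 10 for Eef1a1, 7 for Eif4b, 4 for Eef1b2 and Tpt1, and 2 for Eef2. A run of at least 8 was found in 3 of 7 TOP members and in 3 of 21 other members (Eif2s3x, Eif3l and Eif3m), beside 13.7% of all 32851 start windows, which count every listed start of a gene. The second listed start of Eif4e has a run of 10. With 20 bases to either side, 4 of 7 TOP members and 4 of 21 others had such a run, beside 21% of all windows; Eef2 was added, with a run of 8 that begins at base 15, counted from 1 at the start site. With 10 bases to either side, a run of at least 8 was found in 28 of 61 ribosomal protein genes. Median runs in that window were 7 bases in TOP members and 3 in the others. A run is a description of these letters at an annotated start, which can lie some bases from the start used in liver.

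Restriction in wild types, at 16 weeks, gave the members their clearest change. Footprints on 15 of 36 members rose and none fell, against 5.44% of all genes up and 6.71% down (edgeR's quasi-likelihood test, Benjamini-Hochberg adjusted p under 0.05). Of the 2541 genes with a mean CPM at or above that of the least abundant member, 11.2% rose and 12.4% fell. Of the TOP members 7 of 12 rose, and of the others 8 of 24. The TOP members had a median log2 change of 1.05, with values from 0.68 to 1.34, the others 0.30, from -0.31 to 0.75, and all genes 0.02. In 18 of 36 members every restricted library lay above every fed one, 9 of them TOP, against 6.35% of all genes. All 36 members together took 0.602 ± 0.0746% of the counts in fed and 1.13 ± 0.255% in restricted wild types (SD, n = 4 each), and the 12 TOP members 0.371 ± 0.0572% and 0.836 ± 0.211%. In whole liver, more cells of a type and more footprints per cell cannot be told apart.

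**Figure D1:**
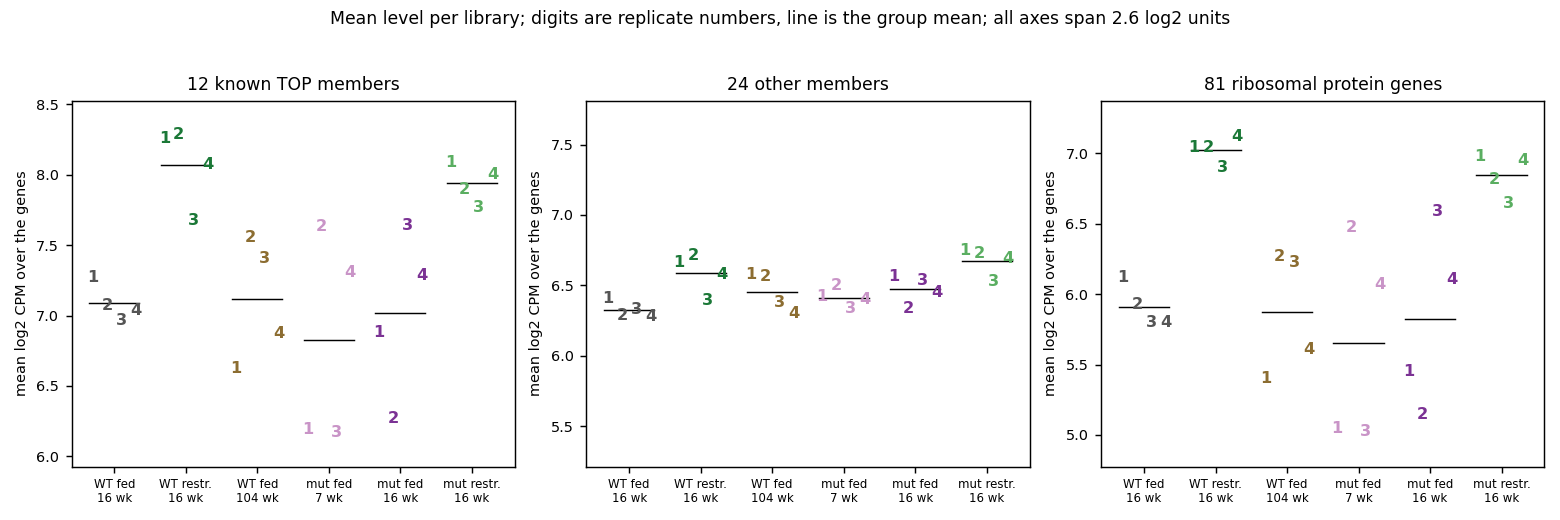
Mean log2 CPM in each library over the 12 known TOP members (left), the 24 other members (middle) and 81 ribosomal protein genes (right), by group; digits are replicate numbers, horizontal lines are group means and the 3 axes span the same range. The TOP members lie at 7.68 to 8.28 in the 8 restricted libraries and at 6.17 to 7.64 in the 16 fed ones, while the other members lie between 6.28 and 6.75 in all 24.

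The 3 ribosome-associated genes all rose. Rack1 encodes a scaffold protein of the small ribosomal subunit (ENSMUSG00000020372, chromosome 11, 48800360 to 48806241). Its footprints were at 249, 203, 155 and 152 CPM in fed and at 554, 499.7, 340.4 and 466 CPM in restricted wild types, a log2 change of 1.29 ± 0.37 (SE; adjusted p = 0.0261). The groups did not overlap, and replicate 3 was the lowest of the restricted livers.

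Tpt1 encodes the translationally controlled tumour protein TCTP (ENSMUSG00000060126, chromosome 14, 75845256 to 75848303). It had 327, 257, 226 and 269 CPM in fed and 732, 850.3, 491 and 653 CPM in restricted wild types, a log2 change of 1.34 ± 0.42 (adjusted p = 0.0407), the highest of the 36. The call of Tpt1 held in 1 of 8 fits that each left out 1 library. Naca encodes a subunit of the nascent polypeptide-associated complex, which covers the new chain at the ribosome's exit. It is not on the list of known TOP members, which does not settle whether its mRNA has the tract. Naca went from 125, 107, 113 and 101 CPM to 177, 244, 154 and 176 CPM, a log2 change of 0.75 ± 0.16 (adjusted p = 0.00221). None of these pairs of groups overlapped.

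Among elongation factors, Eef1d was called. Its 4 fed livers had 78.3, 77.4, 84.4 and 65.6 CPM and the restricted ones 138, 130.4, 121 and 129 CPM, a log2 change of 0.76 ± 0.15 (adjusted p = 0.00155), with no overlap. Eef1a1 (ENSMUSG00000037742, chromosome 9, 78478453 to 78481724) had 2139, 1714, 1842 and 1747 CPM in fed and 3960.05, 4722, 2890.1 and 4371 CPM in restricted livers. Each restricted liver was above each fed one, and the log2 change of 1.10 ± 0.42 did not pass (adjusted p = 0.0915).

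Eef2 (ENSMUSG00000034994, chromosome 10, 81176631 to 81182509) had 1184, 958, 793 and 929.9 CPM in fed and 2361, 2473, 1039.7 and 2549 CPM in restricted livers. Replicate 3 of the restricted livers lay within the fed range, and the change of 1.12 ± 0.44 did not pass (adjusted p = 0.1075). Eef1b2 at 1.31 ± 0.43 (adjusted p = 0.0527) and Eef1g at 0.98 ± 0.33 (adjusted p = 0.0544) did not pass either, and in both the groups did not overlap. Eif5a, whose hypusine-bearing product helps ribosomes through hard stretches and which is not on the TOP list, was at -0.02 ± 0.13. These tests used a spread shared by all 24 libraries; in a fit of the 8 compared libraries alone 14 members were called, 11 of them TOP.

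**Figure D2:**
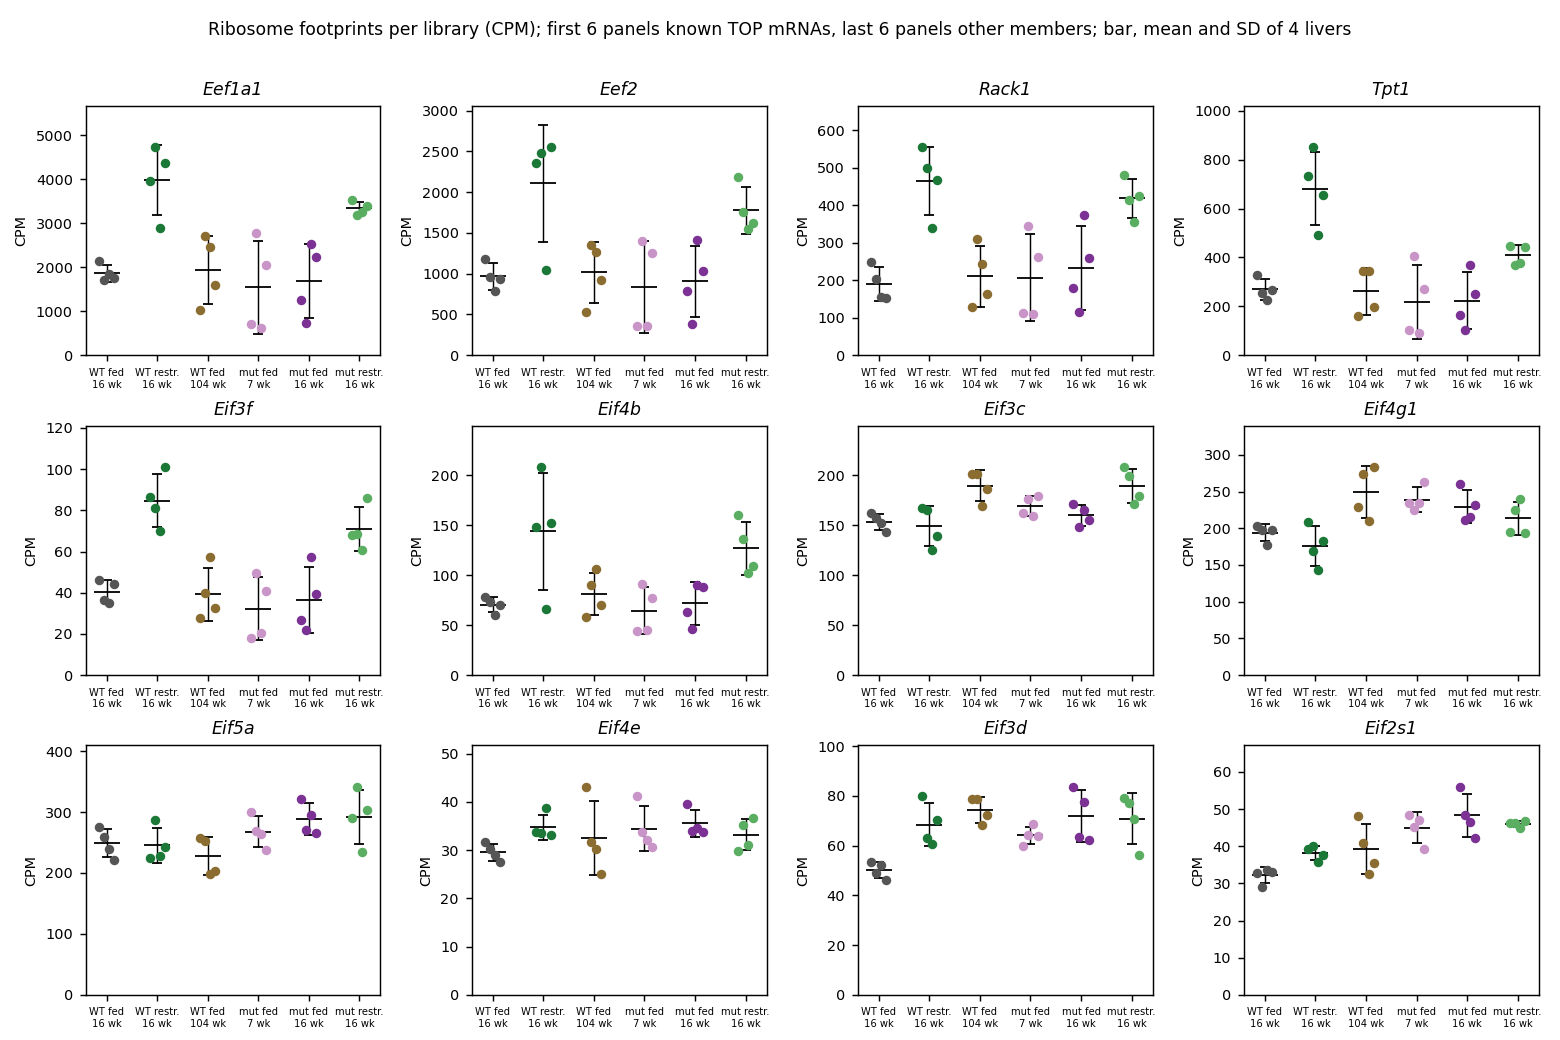
Footprints in CPM per liver for 12 members, by group, with 6 known TOP members in the first 6 panels and 6 other members in the last 6; each point is 1 of 4 livers and the bars are the group mean and SD, and every axis starts at 0. Eef1a1 lies at 2890.1 to 4722 CPM in restricted and at 1714 to 2139 CPM in fed wild types, and fed mutants spread from 630.2 to 2771 CPM at 7 weeks.

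The eIF3 complex split along the same line. The TOP subunits Eif3e, Eif3f and Eif3h rose by log2 0.70 ± 0.16, 1.06 ± 0.30 and 0.68 ± 0.18 (adjusted p = 0.00543, 0.0221 and 0.013). Eif3f had 46.3, 36.3, 34.9 and 44.2 CPM in fed and 86.3, 80.9, 70.1 and 101 CPM in restricted livers. The other 9 subunits lay between -0.04 and 0.54, and 5 of them rose.

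Of those 5, Eif3g led with 46.9, 42.0, 37.4 and 38.9 CPM in fed and 61.6, 57.9, 59.5 and 60.9 CPM in restricted livers (log2 0.54 ± 0.12, adjusted p = 0.00316). Eif3d, the subunit that can bind the cap of some mRNAs, rose by 0.45 ± 0.13 (adjusted p = 0.0181), Eif3m by 0.43 ± 0.13 (adjusted p = 0.0277), the large scaffold subunit gene Eif3a by 0.42 ± 0.14 (adjusted p = 0.0466), and Eif3k by 0.40 ± 0.12 (adjusted p = 0.0291). Eif3b and Eif3c, which encode core subunits, were at 0.06 ± 0.11 and -0.04 ± 0.11, Eif3l at 0.09 ± 0.12 and Eif3i at 0.35 ± 0.12 (adjusted p = 0.0545). Within 1 complex the changes thus ran from -0.04 for Eif3c to 1.06 for Eif3f.

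Among genes of cap binding and scanning, Eif4b, a TOP member whose product assists the helicase eIF4A, rose by 1.03 ± 0.29 (adjusted p = 0.0243). Its 4 restricted livers had 148, 208, 66.5 and 153 CPM against 78.04, 73.6, 60.4 and 70.3 CPM in fed ones, so replicate 3 lay within the fed range. Eif4a2, a helicase gene, rose by 0.72 ± 0.22 (adjusted p = 0.0328), with replicate 3 again the lowest restricted liver at 141 CPM and the others at 233 to 265 CPM. Its close relative Eif4a1 was at 0.33 ± 0.13 (adjusted p = 0.0895).

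The cap-binding protein gene Eif4e was at 0.23 ± 0.14, its scaffold Eif4g1 at -0.14 ± 0.13, Eif4g2 at 0.40 ± 0.16 and Eif4h at 0.18 ± 0.11, and none passed. Pabpc1, the TOP member that encodes the main poly(A)-binding protein, had 233, 205, 105 and 69.3 CPM in restricted and 72.7 to 106 CPM in fed livers (0.84 ± 0.45, adjusted p = 0.251). Its restricted livers thus reached from below the fed range to above it.

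Among genes of eIF2, start codon factors and eIF6, Eif2s2, the beta subunit of eIF2, rose by 0.46 ± 0.13 (adjusted p = 0.0198). Eif2s1, the alpha subunit that stress kinases phosphorylate, was at 0.25 ± 0.12 and the gamma subunit Eif2s3x at 0.27 ± 0.13 (adjusted p = 0.186 for each). Eif1 was at 0.44 ± 0.21, Eif5b at 0.16 ± 0.15, Eif6 at 0.21 ± 0.16 and Eif5 at -0.31 ± 0.22, none of which passed. Set beside the start windows, the 6 members with a run of at least 8 were Rack1 (run of 16, log2 change 1.29), Eif2s3x (16, 0.27), Eif3f (15, 1.06), Eif3m (11, 0.43), Eef1a1 (10, 1.10) and Eif3l (10, 0.09). Tpt1 and Eef1b2, at 1.34 and 1.31, have runs of 4.

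Ribosomal protein genes, the classical TOP mRNAs, moved with the TOP members: 63 of 81 tested rose and none fell, with a median of 1.18. Among 76 tested genes of a wider translation list, 5 rose and 3 fell. Pabpc4, a relative of Pabpc1, rose by 1.26 ± 0.25 (adjusted p = 0.0016) and Eif2a by 0.69 ± 0.17 (adjusted p = 0.00766). The eIF4G relative Eif4g3 fell by 0.64 (SE 0.14, adjusted p = 0.00301), and Ppp1r15b, a regulatory subunit of the phosphatase that acts on eIF2 alpha, rose by 0.59 ± 0.15 (adjusted p = 0.0103). Of 25 genes of mTORC1 and 4E-BP control none passed.

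In this comparison 3 of 14 macrophage, 3 of 8 stellate cell, 2 of 3 B and plasma cell, 1 of 8 hepatocyte and 1 of 8 endothelial markers also rose. The macrophage markers summed to 287 to 341 CPM in fed and 356 to 548 CPM in restricted wild types and the stellate markers to 217 to 324 and 314 to 615 CPM, with none of either list at 0 in all livers of a group; their part in the members' change was not tested. The count of 15 was 7 without the filter on low counts, 20 with DESeq2, 7 without replicate 3 or 4 of the fed livers, and 8 without replicate 2 of the fed or replicate 1 or 4 of the restricted ones; without the restricted replicate 3 it was 20. Eef1d, Eif3e, Eif3g, Eif3h and Naca were called in all 8 fits that left out 1 library, and the other 10 in 1 to 6 of the 8. Tpt1, Eif3a and Eif4a2 were called in 1 of the 8, Eif3k and Eif3m in 3, and Rack1 and Eif4b in 4. Eif3f was called in 5, and Eif2s2 and Eif3d in 6.

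**Figure D3:**
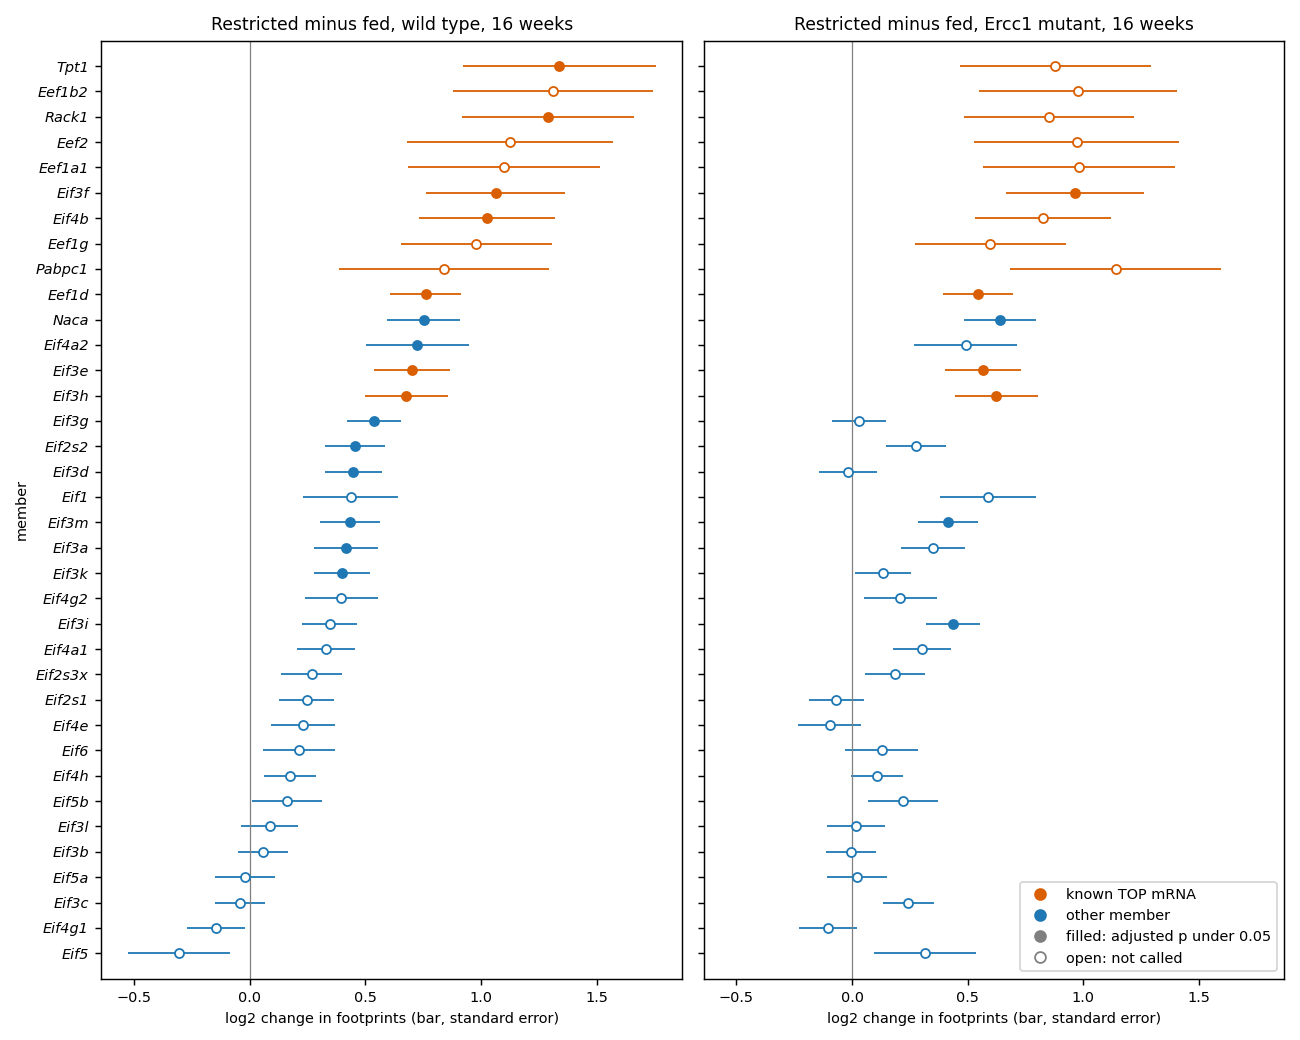
Log2 change in footprints from fed to restricted livers at 16 weeks for the 36 members, in wild types (left) and Ercc1 mutants (right), sorted by the wild-type value; bars are standard errors, orange marks known TOP members, and filled points have an adjusted p under 0.05. The 12 TOP members lie between 0.68 and 1.34 in wild types and between 0.54 and 1.14 in mutants, and 15 and 7 points are filled.

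The same restriction was compared in Ercc1 mutants, in livers other than those of the wild-type comparison. There 7 of 36 members rose and none fell, against 5.59% of all genes up and 6.04% down. They were 4 of 12 TOP members and 3 of 24 others. Of the 2541 genes at least as abundant as the least abundant member, 11.4% rose and 12.9% fell. The share of the other members that rose, 12.5%, was near that of these genes. The TOP median was 0.86, with values from 0.54 to 1.14, that of the others 0.20, from -0.10 to 0.64, and that of all genes 0.00186. In 13 members, 9 of them TOP, every restricted liver lay above every fed one, against 8.43% of all genes.

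Naca had 106, 87.2, 134 and 116 CPM in fed and 189, 165, 144 and 192 CPM in restricted mutants (log2 0.64 ± 0.16, adjusted p = 0.00778). Eef1d went from 81.1, 67.4, 101 and 91.5 CPM to 138, 117, 104 and 139 CPM (0.54 ± 0.15, adjusted p = 0.0193). In both genes the lowest restricted liver, replicate 3, was above the highest fed liver, also replicate 3. The eIF3 complex again split: the TOP subunits Eif3f, Eif3h and Eif3e rose by 0.96 ± 0.30, 0.62 ± 0.18 and 0.57 ± 0.16 (adjusted p = 0.0396, 0.0229 and 0.0231), and of the other 9 subunits Eif3i rose by 0.44 ± 0.12 (adjusted p = 0.0159) and Eif3m by 0.42 ± 0.13 (adjusted p = 0.0365).

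Eif3f had 26.7, 21.7, 57.5 and 39.3 CPM in fed and 67.9, 68.7, 60.6 and 86.0 CPM in restricted mutants. Eif3h had 47.4, 38.4, 65.4 and 63.6 CPM in fed and 88.6, 90.0, 70.2 and 82.3 CPM in restricted ones. Eif3e had 64.5, 43.4, 60.6 and 67.0 CPM against 89.2, 87.6, 73.3 and 98.8 CPM. None of these groups overlapped, and replicate 2 was the lowest fed mutant in each.

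Eif3i, whose product is a small subunit at the edge of the complex, had 87.6, 74.6, 104 and 88.0 CPM in fed and 117, 129, 109.9 and 123 CPM in restricted mutants. Eif3m had 69.9, 50.6, 79.1 and 66.7 CPM in fed and 85.4, 91.4, 85.7 and 92.5 CPM in restricted ones. Both groups were apart. Eif3g and Eif3d, which rose in wild types, were at 0.03 ± 0.12 and -0.02 ± 0.12 in mutants.

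Eef1a1 had 1256, 742, 2537 and 2223 CPM in fed and 3519, 3192, 3253 and 3386 CPM in restricted mutants. Its restricted livers were close together and above all fed ones, which themselves spread 3.42-fold, and the change of 0.98 ± 0.42 did not pass (adjusted p = 0.1396). Eef2 at 0.97 ± 0.44, Eef1b2 at 0.98 ± 0.43, Rack1 at 0.85 ± 0.37, Tpt1 at 0.88 ± 0.41, Eif4b at 0.82 ± 0.29, Eef1g at 0.60 ± 0.33 and Pabpc1 at 1.14 ± 0.46 did not pass either, with adjusted p from 0.0723 to 0.261.

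Of 81 ribosomal protein genes 37 rose and 1 fell, with a median of 0.93. Among the wider list 4 of 76 rose: Pabpc4 by 1.08 ± 0.25 (adjusted p = 0.005), Hbs1l, a ribosome rescue factor, by 0.69 ± 0.17 (adjusted p = 0.00931), the mTORC1 inhibitor Sesn1 by 1.4 ± 0.41 (adjusted p = 0.0271), and Larp1 by 0.44 ± 0.14 (adjusted p = 0.0379). Of 14 macrophage and 8 stellate cell markers none passed here, while of 8 hepatocyte markers 2 rose and 2 fell, of 8 endothelial markers 2 rose and 1 fell, and 1 of 5 cholangiocyte markers rose; their part was not tested. The count of 7 was 1 without fed replicate 2, 2 without restricted replicate 1, 3 without restricted replicate 4, and 4 without fed replicate 1 or restricted replicate 2; Naca was called in each of these fits.

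Of the 15 members called in wild types and the 7 called in mutants 6 were the same: Eef1d, Eif3e, Eif3f, Eif3h, Eif3m and Naca. How many of all genes were called in both comparisons was not counted, so this overlap has no background to be read against. The difference between the 2 responses was tested itself, as the mutant response minus the wild-type one, over the same 16 livers. None of 36 members passed, against 0.516% of all genes up and 0.287% down, and 2 had an unadjusted p under 0.05; the count was 0 in DESeq2 as well. The smallest adjusted p was 0.154, of Eif3g at -0.51 ± 0.17. The TOP members had a median difference of -0.18, all but Pabpc1 being negative, and standard errors from 0.21 to 0.64, so differences of that size could not be told from 0 in these libraries.

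The level of the TOP members relative to the others differed between livers of the same group. Within each library the mean log2 CPM of the 12 TOP members minus that of the other 24 was taken; this is a description of libraries and no test was made on it. It was 0.86, 0.79, 0.64 and 0.76 in fed wild types at 16 weeks, and 1.60, 1.57, 1.28 and 1.49 in restricted wild types. Old fed wild types had 0.05, 1.00, 1.03 and 0.58, fed mutants -0.23, 1.14, -0.16 and 0.91 at 7 weeks and 0.32, -0.06, 1.11 and 0.84 at 16 weeks, and restricted mutants 1.34, 1.17, 1.24 and 1.31.

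The restricted livers, from 1.17 up, all lay above the fed livers, which reached 1.14. Young wild types and both restricted groups were close together, with SDs of 0.0919, 0.142 and 0.076, and the 3 other groups were spread, with SDs of 0.459, 0.711 and 0.524. In the 4 mutants at 7 weeks albumin took 7.80 and 7.32% of the counts in the livers with -0.23 and -0.16 and 9.52 and 9.07% in those with 1.14 and 0.91. Total counts of the first pair were 20958683 and 15247924 and of the second 18426621 and 15304189. In the mutants at 16 weeks total counts were 16552199 and 16548918 in the livers with 0.32 and -0.06 and 18052220 and 21859015 in those with 1.11 and 0.84. The part of depth and of albumin's share was not tested.

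The spread was seen in single members. Tpt1 had 103, 405, 90.1 and 270.5 CPM in mutants at 7 weeks, and Eef2 357, 1403, 357 and 1252 CPM. Replicates 1 and 3 were the low ones in both. Over the 12 TOP members the highest liver was a median of 3.09 times the lowest at 7 weeks, 2.82 times in fed mutants at 16 weeks and 2.13 times in old wild types, but 1.3 times in fed and 1.53 times in restricted young wild types and 1.35 times in restricted mutants. For the other 24 members this ratio had medians from 1.17 to 1.35 in all 6 groups.

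The TOP members went up and down together. Over deviations from the group mean in 24 libraries, the median Pearson r was 0.83 for the 66 pairs of TOP members. Their r ran from 0.55 to 0.98. The median was 0.34 for the 276 pairs of other members and 0.20 for the 288 mixed pairs. The deviations were not scaled by group, so fed mutants and old wild types, where TOP members spread widely, weigh most. Group SDs of the mean log2 CPM were 0.129 to 0.756 for TOP members and 0.0571 to 0.139 for the others, and a small range can lower r. All points share the libraries and their scaling, and no p is given. Ribosomal protein genes were high and low in the same livers, with mean log2 CPM of 5.05, 6.47, 5.03 and 6.07 in the mutants at 7 weeks, 5.45, 5.15, 6.59 and 6.10 in those at 16 weeks, and 5.40, 6.27, 6.22 and 5.61 in old wild types. In restricted wild types replicate 3 was low for the TOP members (7.68 against 8.07 to 8.28) and close to the others for ribosomal protein genes (6.90 against 7.04 to 7.12).

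Fed mutants were compared with fed wild types at 16 weeks. Footprints on 4 of 36 members rose and none fell, against 5.69% of all genes up and 5.04% down. Of the 2541 genes at least as abundant as the least abundant member, 6.89% rose and 9.01% fell. None of the 4 was a TOP member. The TOP median was 0.04, that of the others 0.15 and that of all genes 0.00665.

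Eif2s1 had 32.9, 28.9, 33.6 and 33.2 CPM in wild types and 55.9, 48.3, 46.6 and 42.2 CPM in mutants, a log2 change of 0.59 ± 0.12 (adjusted p = 0.00185). Eif3d had 53.3, 48.9, 52.3 and 46.1 CPM against 83.6, 63.5, 77.6 and 62.4 CPM (0.52 ± 0.13, adjusted p = 0.00798). In both genes every mutant liver was above every wild-type one. These 2 calls held in all 8 fits that left out 1 library.

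Eif4a1 had 335, 343, 328 and 326 CPM in wild types and 462, 421, 494 and 458 CPM in mutants (0.46 ± 0.13, adjusted p = 0.0188). Eif3a had 121, 123, 124 and 117 CPM against 179, 146, 169 and 173 CPM (0.46 ± 0.14, adjusted p = 0.0312). Groups did not overlap in either gene. The call of Eif3a was lost in 7 of the 8 fits that left out 1 library and without the filter on low counts (adjusted p = 0.0551), and without wild-type replicate 4 or mutant replicate 3 the count fell to 2.

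The TOP members lay between -0.28 ± 0.41 for Tpt1 and 0.29 ± 0.37 for Rack1. Their standard errors ran from 0.15 for Eef1d to 0.45 for Pabpc1, against 0.11 to 0.22 in the other members. Of the wider list 4 of 76 rose and 2 fell. The ribosome recycling factor gene Abce1 rose by 0.50 ± 0.11 (adjusted p = 0.00512), Eif4e3 by 1.36 ± 0.34 (adjusted p = 0.00974) and the eIF2B subunit gene Eif2b3 by 0.71 ± 0.18 (adjusted p = 0.0105), and the eIF4E inhibitor gene Eif4ebp2 fell by 0.84 (SE 0.24, adjusted p = 0.0261).

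Macrophage markers moved with this comparison. Of 14 tested 13 rose, their sum ran from 287 to 341 CPM in wild types and from 560.1 to 743 CPM in mutants, and none was at 0 in all livers of a group; 3 of 8 stellate cell markers, 1 of 3 B and plasma cell markers and 2 of 3 neutrophil markers rose as well, and 1 neutrophil and 2 of 8 hepatocyte markers fell. Their part in the rise of the 4 members was not tested.

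Old wild types were compared with young ones, a comparison that shares the fed young wild types with those of genotype and of restriction. Footprints on 2 of 36 members rose and none fell, against 4.75% of all genes up and 4.59% down. The members' share of 5.56% up was thus near that of all genes. Among the 2541 genes at least as abundant as the least abundant member it was 5.71%. Eif3d had 78.6, 78.7, 68.1 and 72.3 CPM at 104 weeks against 46.1 to 53.3 CPM (0.57 ± 0.13, adjusted p = 0.00456), and Eif4a1 567, 498, 413 and 366 CPM against 326 to 343 CPM (0.47 ± 0.13, adjusted p = 0.0188). Both groups were apart, the old ones widely spread for Eif4a1.

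None of 12 TOP members passed, with a median of 0.05 and values from -0.16 to 0.70, the highest being Pabpc1, read at 257 CPM in replicate 2 and at 87.1 to 115 CPM in the other 3. Of the wider list 1 gene fell, the 4E-BP gene Eif4ebp3, by 1.65 (SE 0.44, adjusted p = 0.0217). Of 14 macrophage markers 10 rose, summing to 452 to 589 CPM against 287 to 341 CPM with none at 0 in all livers of a group. All 3 tested markers of B and plasma cells rose, the list of 8 summing to 34.9 to 83.4 CPM against 1.4 to 4.23 CPM, as did 2 of 3 neutrophil markers (5.87 to 10.5 against 2.15 to 5.96 CPM, with Camp and Mpo at 0 in the old livers) and 1 of 5 cholangiocyte markers. The part of these lists was not tested. The count of 2 was 5 with DESeq2, which added Eif2s2, Eif3c and Eif4g1, and 4 without old replicate 4, which added Eif2s2 and Eif6. Without young replicate 3 or 4 or old replicate 1 or 2 Eif3d alone was called.

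Between 7 and 16 weeks in fed mutants none of the 36 members passed in edgeR's test, none in DESeq2 and none at an unadjusted p under 0.05, against 0.246% of all genes up and 0.188% down. The values lay between -0.16 for Pabpc1 and 0.30 for Eef1b2. With the spread between livers described above, the standard errors of the TOP members were 0.15 to 0.45.

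Restricted mutants were compared with restricted wild types, using the restricted livers of both earlier comparisons. Footprints on 4 of 36 members rose and none fell, against 9.38% of all genes up and 8.85% down, so the members' share was near that of all genes. Eif5, whose product makes eIF2 hydrolyse its GTP, had 31.6, 63.6, 52.1 and 22.1 CPM in wild types and 81.7, 72.0, 77.4 and 64.4 CPM in mutants (0.80 ± 0.22, adjusted p = 0.0129). The wild types were widely spread, and the highest of them was just below the lowest mutant. Eif4a1 had 431, 437, 389.6 and 416 CPM against 562, 686, 460.3 and 556 CPM (0.44 ± 0.13, adjusted p = 0.0175), with no overlap.

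Eif3c had 167, 165, 125 and 139 CPM in restricted wild types and 208, 199, 171 and 179 CPM in restricted mutants (0.34 ± 0.11, adjusted p = 0.0294). Eif3a had 177, 191, 117 and 161 CPM against 237, 179, 218 and 215 CPM (0.39 ± 0.14, adjusted p = 0.048), with overlap. None of 12 TOP members passed; their median was -0.19, that of the others 0.05. Tpt1 was the lowest, at -0.74 ± 0.41 (adjusted p = 0.23), with 371 to 448 CPM in mutants below 491 to 850.3 CPM in wild types.

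In a fit of these 8 libraries alone Tpt1 was the 1 member called, and none of the 4 was. The count was 2 without the filter on low counts, 7 without wild-type replicate 1, 1 (Eif5) without wild-type replicate 3, and 2 without wild-type replicate 4 or mutant replicate 1 or 2. Of the wider list 10 rose and 2 fell, led by Eif2d (0.89 ± 0.17, adjusted p = 0.000525), Eif2b3 (0.82 ± 0.18, adjusted p = 0.00201), Hbs1l (0.73 ± 0.17, adjusted p = 0.00391) and Abce1 (0.48 ± 0.11, adjusted p = 0.00466). Macrophage markers rose in 6 of 14, with 592 to 744 CPM in mutants and 356 to 548 CPM in wild types and none at 0 in all livers of a group, and 3 of 8 stellate cell markers rose. Of 8 hepatocyte markers 1 rose and 3 fell, of 8 endothelial and of 3 neutrophil markers 1 rose and 1 fell each, and 1 of 5 cholangiocyte markers rose; the part of these lists was not tested.

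**Figure D4:**
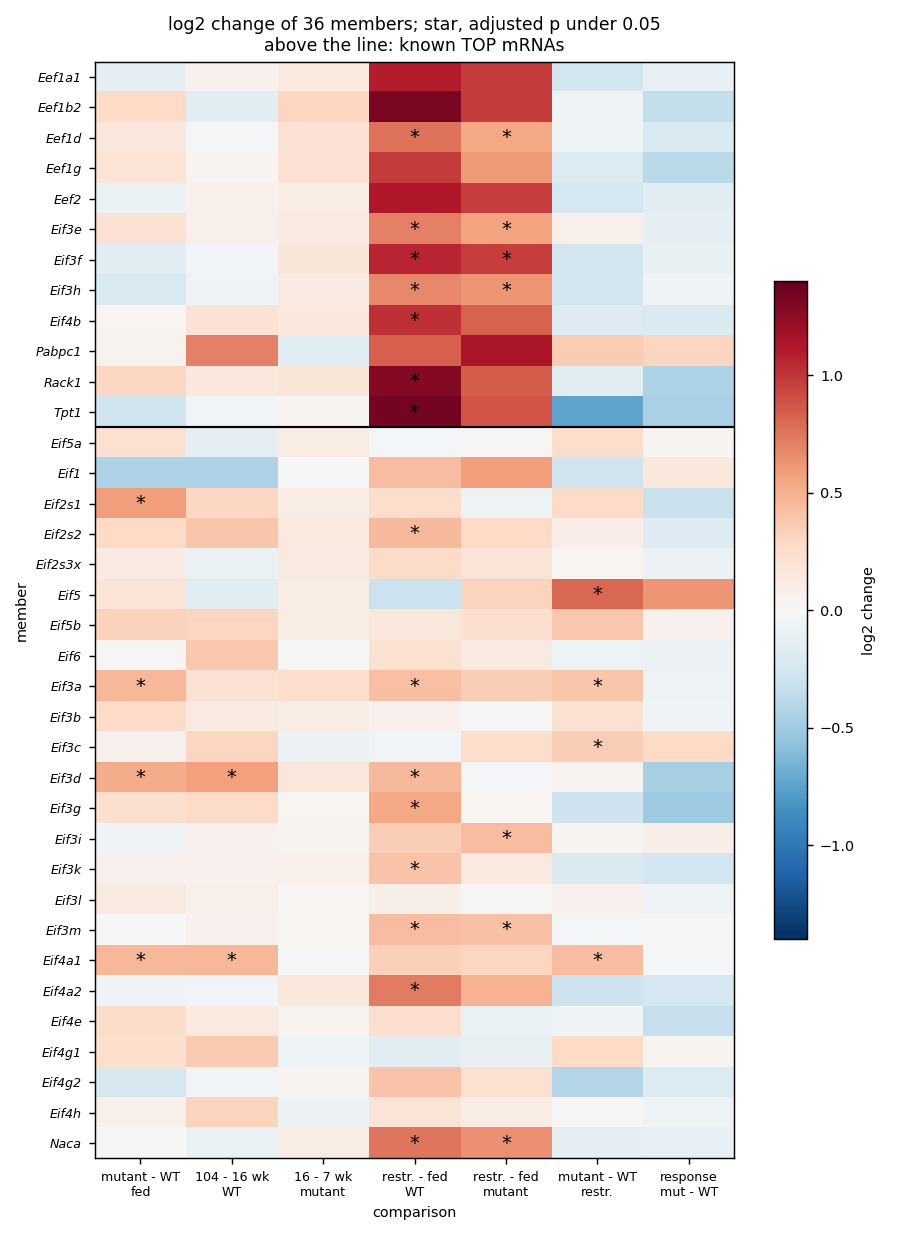
Log2 change of the 36 members (vertical axis) in the 7 comparisons (horizontal axis), with the 12 known TOP members above the line; colour gives the change from -1.4 to 1.4, and a star marks an adjusted p under 0.05. Stars of TOP members stand in the 2 columns of restriction against feeding, 7 in wild types and 4 in mutants, and in no other column.

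Eif4a1 was called in 3 comparisons, mutant against wild type in fed and in restricted mice and old against young. Its group means were 333 ± 7.47 CPM in fed and 419 ± 21.2 CPM in restricted young wild types, 461 ± 89.4 CPM in old ones, 466 ± 26.5 CPM in mutants at 7 and 459 ± 30.0 CPM at 16 weeks, and 566 ± 92.4 CPM in restricted mutants (SD, n = 4 each). Eif3d was called in fed mutants, in old and in restricted wild types, with 50.2 ± 3.31 CPM in the fed young wild types that these 3 comparisons share and 64.2 to 74.4 CPM as means of the other 5 groups. Eif3a had 121 ± 2.94 CPM in those wild types and 140 to 212 CPM as means elsewhere. The comparison of restricted mutants with restricted wild types, in which Eif4a1 and Eif3a were also called, does not use those fed wild types.

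Some members cannot be taken singly. Eef1a1, Eef1b2, Tpt1, Rack1, Naca and Eif1 have processed pseudogenes, Eif4a1 and Eif4a2 are close relatives, and Eif2s3x has a near copy on the Y chromosome, Eif2s3y. How reads that fit several genes were counted is not given in the sources used here.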

How the data were processed

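The deposited file gives whole counts of reads for each Ensembl gene in 24 Ribo-Seq libraries, with no normalization. Per the labels' protocols, frozen liver was lysed with cycloheximide and footprints were made with RNase I. The submitters' processing notes name Trimmomatic (version 0.39), STAR (versions 2.7.0f and 2.7.8a), featureCounts, Subread (1.6.4), cutadapt (3.4), Bowtie2 (2.4.2) and the build GRCm38.p6; settings, strand use and the counting of reads that match several genes are not stated in what was used here. The 13 genes without a symbol stayed in the fit.

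The fit used edgeR 4.0.16 under R 4.3.3: filterByExpr, TMM scaling, and a robust quasi-likelihood model of 6 groups over 24 libraries with no covariate (18 residual degrees of freedom). P-values were adjusted by Benjamini-Hochberg over 12211 genes, with a threshold of 0.05. SE is the size of the log2 change over the square root of F. CPM uses effective library sizes, and log2 CPM a prior count of 2. The labels give 4 numbered samples per group, taken here as separate livers. Each p-value sets a change against a spread between samples that was estimated over all 24 libraries, groups outside the comparison included.

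Members and lists were chosen with earlier results of these data known. Up to 12 called members and 4 genes of the wider list per comparison, by smallest adjusted p, were given full statistics, and the other members by values, ranges and counts. The procedure was run on simulated data with the same spread set for all genes and groups. The TOP members differed in spread between groups, so that run does not cover their case. Alternatives were DESeq2 1.42.0, other scalings, no filter, the replicate block, the compared libraries alone, and leaving out each library. Footprints per coding length, planned for levels between genes, were not computed, since coding lengths were not used here, and no member's level was set against another's.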

Additional observations from a re-analysis of the deposited data

Results flagged for a closer look

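In groups of 4 livers, a value was noted where its gap to the nearest other liver took more of the group's range than Dixon's 95% critical value. This held for 11 of 234 groups of values, and chance alone gives about 1 in 20, or 11.7. In restricted wild types 5 of the 11 fell on replicate 3, which was low for Eef2 (1040 CPM, the others 2361 to 2549), Eif3e (65.7 CPM, the others 87.1 to 90.6), Eif3h (76.6 CPM, the others 104 to 109) and Eif3k (53.5 CPM, the others 65.6 to 67.7), and high for Eif4e (38.7 CPM, the others 33.1 to 33.7). In fed mutants at 16 weeks 3 fell on replicate 1, high for Eif4e (39.6 CPM, the others 33.8 to 34.6) and Eif1 (149 CPM, the others 89.7 to 97.0), low for Eif4h (59.7 CPM, the others 66.6 to 67.5). The remaining 3 were Eif2s1 in replicate 2 of fed young wild types (28.9 CPM, the others 32.9 to 33.6), Eif2s3x in replicate 3 of restricted mutants (75.1 CPM, the others 89.1 to 91.6) and Pabpc1 in replicate 2 of old wild types (257 CPM, the others 87.1 to 115).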

How the results depend on the processing

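Members called under restriction in wild types numbered 15, with 7 when no filter on low counts was set and 7 to 20 when 1 library was left out; in restricted against fed mutants they numbered 7, with 1 to 8. Fed mutants against wild types gave 4, with 2 to 4. Old against young gave 2, with 5 in DESeq2 and 1 to 4 when 1 library was left out. Restricted mutants against restricted wild types gave 4, with 2 when no filter was set, 1 in the compared libraries alone and 1 to 7 when 1 library was left out; the cause was not tested. The 2 counts of 0 stayed at 0 in all fits run. The TOP median minus that of the others was 0.746 under restriction in wild types (0.683 to 0.823 when 1 library was left out) and 0.667 in mutants (0.486 to 1.01). Of 32 member calls in 7 alternative fits, 197 of 224 kept their side of the threshold and 27 missed it; without 1 library 162 of 256 kept it and 94 missed it. None of these member calls changed direction. In 4 of the 5 comparisons with no TOP member called, the TOP median minus that of the others changed sign without some libraries: it ran from -0.274 to 0.0416 in fed mutants against wild types, -0.23 to 0.0617 in old against young, -0.153 to 0.354 between 7 and 16 weeks, and -0.246 to 0.0437 for the difference between the responses. In restricted mutants against restricted wild types it stayed negative, from -0.284 to -0.189. With the replicate block the counts were 13, 7, 4, 2 and 5 in the order above. In the main fit the livers were not treated as pairs. Same-numbered libraries of different groups had deviations correlated from -0.19 to 0.25 (median 0.00635, 60 pairs). Libraries with other numbers had -0.22 to 0.30 (median -0.00154, 180 pairs). Of 24 libraries 10 correlated best with their own number, a larger share than the 60 same-numbered pairs have among all pairs. Whether equal numbers share a batch is not said in the labels and was not tested.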
